A study of Ovis aries with 6 samples.

Results

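The genes described here encode subunits of the mitochondrial respiratory chain and of the ATP synthase, together with the complex I assembly factors that share the NDUFAF name. They were found in the count table of the longissimus muscle by the gene symbols of the subunit families (NDUFA, NDUFB, NDUFC, NDUFS and NDUFV, SDHA to SDHD, UQCR, COX4 to COX8, CYC1, CYCS and ATP5), which gave 65 of 23144 genes. Of these, 38 belonged to complex I, 7 were NDUFAF genes, 4 made up complex II, 1 (UQCRH) belonged to complex III, 1 (COX5A) to complex IV, and 14 to the ATP synthase family. Most genes of complexes III and IV, and cytochrome c itself, are listed in the table under LOC numbers. In all, 61 LOC genes were recognised by the BLAST symbol that the authors deposited beside them. Of these, 10 carried symbols of complex III, 25 of complex IV and 7 of cytochrome c. The rest carried symbols of complex I, the NDUFAF family, complex II and the ATP synthase.

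The muscle came from females aged 1 year of the Qianhua Mutton Merino (QHMM), a sheep variety bred for meat and wool, and of the Small Tail Han (STH), a traditional local variety. Each breed was represented by 3 animals, each with its own poly(A) RNA library. Both breeds shared one environment, under natural conditions as the labels say, and were raised with free access to food. By the paper's account, live weight was measured after a fast before slaughter. Apart from this fast no treatment is described, so breed is the factor that separates the groups. The samples are whole muscle, in which fewer cells of a type and less RNA per cell cannot be told apart.

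In the inner mitochondrial membrane, complex I takes electrons from NADH and complex II takes them from succinate. Both pass them through ubiquinone to complex III, cytochrome c and complex IV, where oxygen is reduced, and the proton gradient built on the way drives the ATP synthase. Slow, oxidative muscle fibres are known for a high content of this machinery, while fast glycolytic fibres rely more on glycolysis. Most subunits are encoded in the nucleus, and a few of the central ones in mitochondrial DNA.

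Library totals lay between 10982191 and 14334544 counts, and all 65 genes passed the filter on low counts that left 12506 of 23144 genes to be tested. The markers of the tissue were present in every library, since ACTA1, CKM, DES, TTN and NEB of the muscle fibre were among the abundant genes. Log2 fold changes of these 5 were below 0 in 2 and above 0 in 3, with a median of 0.12 and 0 called. Myoglobin (MB, LOC780509), the oxygen store of the fibre, had 62516, 94536 and 75864 normalized counts in QHMM against 16965, 20418 and 46545, without overlap. Its log2 fold change was -1.47 (edgeR FDR = 0.0683), DESeq2 called it, and, as for the 65 genes below, QHMM replicate 2 was highest and STH replicate 3 the highest of STH. QHMM replicate 2 and STH replicate 3 stood apart from the other libraries of their breeds on the second principal component (19.1% of the variance), while the first (44.1%) separated the breeds. Results are therefore also given without these 2 libraries. Markers of slow fibres moved with the breed: all 10 of those tested by symbol were lower in each STH library than in each QHMM library, 6 of them passed the threshold, and their summed normalized count was 425539 to 470466 in QHMM and 162792 to 199019 in STH. MYH7 was not among the symbols of the table, and the gene listed as OMYHCS, which carries the BLAST symbol MYH7, ranged from 188058 to 260037 in QHMM and from 87102 to 94057 in STH. Summed fast fibre markers ranged from 949868 to 1303046 in QHMM and from 620454 to 1147328 in STH, with TNNT3 at 0 in all libraries and 0 of 9 called (3 lower at an unadjusted p below 0.05, 2 called by DESeq2). Their log2 fold changes were below 0 in 9 of 9, with a median of -0.34, and in 10 of 10 without QHMM replicate 2 and STH replicate 3, with a median of -0.81. Of the adipocyte markers 4 of 6 were called lower in STH, with sums of 1503 to 5112 against 691 to 1041. For fibroblasts 0 of 4 were called (1 lower at an unadjusted p below 0.05, 1 by DESeq2), with sums of 10992 to 17835 in QHMM and 4765 to 9791 in STH. The collagen genes COL1A2 (LOC443512) and COL3A1 (LOC100101231) of that list stand under LOC numbers. They had -1.38 and -1.22 without overlap, summed to 18302 to 32198 in QHMM and 5449 to 14858 in STH, and were called by DESeq2 but not by edgeR. Endothelial markers summed to 7446 to 7773 and 8075 to 9439, leukocyte markers to 883 to 1197 and 645 to 1078, and satellite cell and nerve markers to 428 to 847 and 356 to 739, with none called in these 3 lists by edgeR or DESeq2 and 1 endothelial gene higher at an unadjusted p below 0.05. The blood marker HBM was at 0 in all libraries, AHSP and ALAS2 were at 0 in some and at most at 19.0 normalized counts, and HBA1 (LOC101108797) had 18.7 to 49.1. Over all tested genes 11.7% were lower in STH without overlap, and 9.72% were lower and 9.43% higher at an unadjusted p below 0.05. Called lower were 1.83% of all genes by edgeR and 4.44% by DESeq2. The part of fibre type or of any other cell type in the results below was not tested.

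Nearly all genes of the respiratory chain and the ATP synthase had lower mean counts in STH than in QHMM (median fold 0.749), but as a single gene only SDHC passed edgeR's test. A log2 fold change below 0, which stands for a lower level in STH, was found for 62 of the 65 genes, against 48.2% of all tested genes. The exceptions were NDUFS8 with 0.11, NDUFAF4 with 0.13 and NDUFA4L2 with 0.19. The median log2 fold change was -0.42, beside 0.02 over all tested genes. In 28 genes (43.1%) every STH library was below every QHMM library on TMM-normalized counts, which were scaled to a common library size, beside 11.7% of all tested genes. In none of the 65 was every STH library above every QHMM library, beside 13.0% of all genes. An unadjusted p below 0.05 in the lower direction was reached by 17 genes (26.2%), beside 9.72% of all genes, and by 0 genes in the higher direction, beside 9.43%.

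A gene was called at an FDR under 0.05 together with a change of more than 1.5-fold, and edgeR's quasi-likelihood test then called 1 gene lower in STH and 0 higher. Over all genes 3.45% were called, 1.83% lower and 1.62% higher, so that 1 of 65 (1.54%) is near the background. DESeq2 called 3 of the 65 lower, beside 4.44% of all genes. A decrease of more than 1.5-fold was estimated for 13 of 65 genes, beside 14.0% of all genes. The standard errors of the 65 log2 fold changes lay between 0.19 and 0.41 with a median of 0.24. Most of the single differences were therefore below 3 times their own error.

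**Figure D1:**
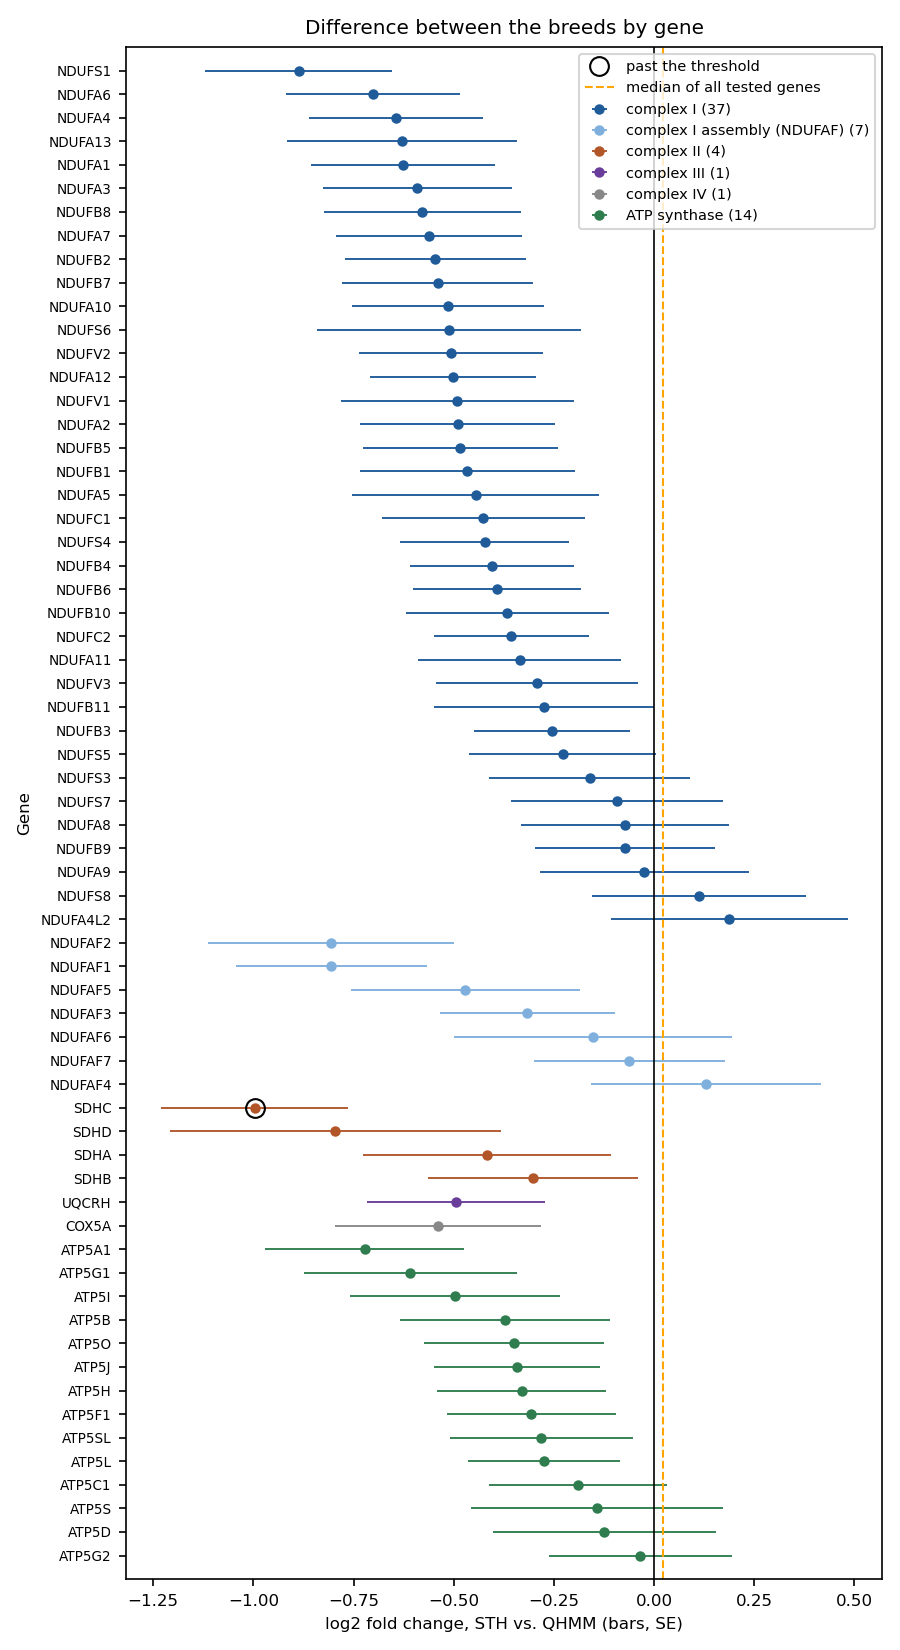
Log2 fold change of 64 of the genes, STH vs. QHMM (x axis), with the genes on the y axis grouped by complex; points are estimates from edgeR and bars the SE. 61 points lie left of 0, the dashed line marks the median of all tested genes (0.02), and the ring marks SDHC, the gene past the threshold.

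The libraries differed in how far they took part in this pattern. QHMM replicate 2 held the highest normalized count for 43 of the 65 genes and QHMM replicate 3 for 13, while STH replicate 1 held the lowest for 26 and STH replicate 2 for 32. The median deviation of the genes from their mean over the 6 libraries, on the log2 scale, was 0.05 in QHMM replicate 1, 0.42 in replicate 2 and 0.19 in replicate 3, against -0.28, -0.29 and 0.02 in STH. STH replicate 3 and QHMM replicate 1 thus overlapped: 33 of 65 genes were higher in QHMM replicate 1, and the median difference between these libraries was 0.01. The deviation of all tested genes stayed between -0.02 and 0.02 in all 6 libraries. Without QHMM replicate 2 the median log2 fold change was -0.29 with 56 genes below 0, and without STH replicate 3 it was -0.52 with 64 below 0. With both left out it was -0.44, and 61 of 65 genes were below 0, beside 49.5% of all genes. The remaining libraries did not overlap in 54 genes (83.1%), beside 23.6% of all genes for these 4 libraries. This pair of libraries was chosen after the data were seen. STH replicate 3 was the STH library closest to QHMM in these genes, so the smaller overlap follows in part from that choice.

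**Figure D2:**
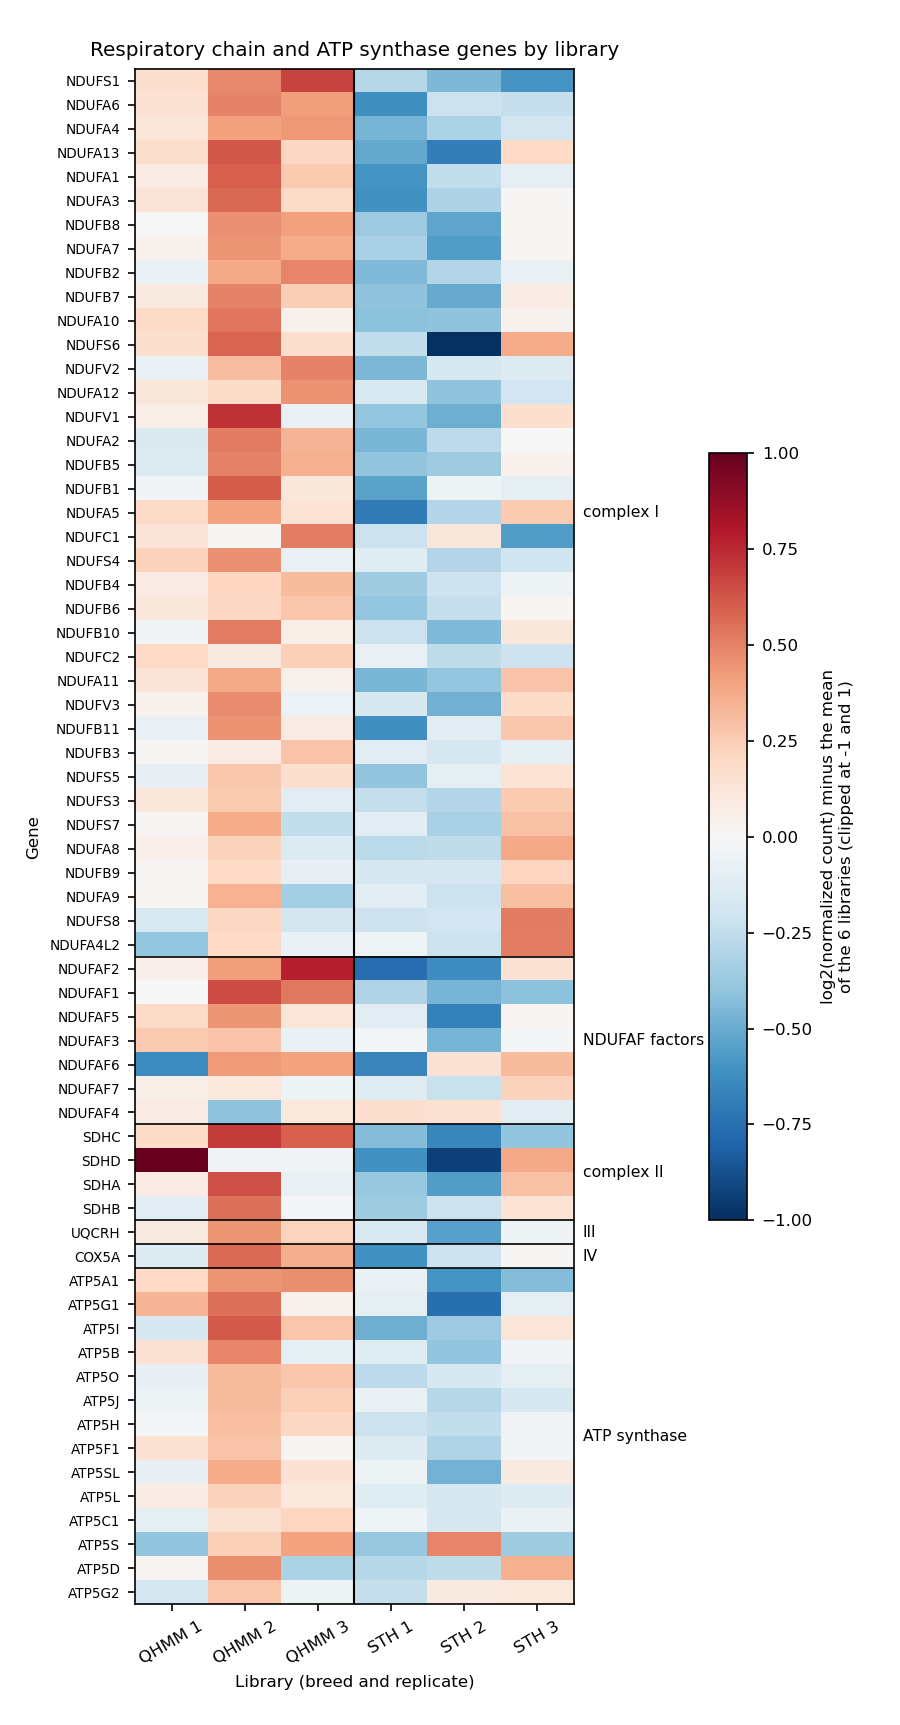
Normalized count of 64 of the genes (y axis, grouped by complex) in each library (x axis), as the log2 deviation from the mean of the 6 libraries; red is above and blue below that mean. The QHMM columns are mostly red and the STH columns mostly blue, with QHMM 2 the reddest (highest for 42 of the genes drawn) and STH 3 near 0 (median 0.02).

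Another scaling moved the median of all genes and of the 65 genes alike. With library totals alone, the scaling that the deposited RPKM values carry, the median of all genes moved to 0.14 and that of the 65 genes to -0.29, and 56 of 65 were below 0. The gap between both medians was -0.44 with TMM and -0.44 with library totals. Among the 1331 genes with a mean normalized count of at least 1000 the median log2 fold change was -0.04, and the 40 subunit genes of that abundance had a median of -0.40.

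Complex I, the NADH-ubiquinone oxidoreductase, gave by name 36 of 38 genes below 0, with a median of -0.46. In 17 genes (44.7%) the breeds did not overlap, beside 11.7% of all tested genes. Without QHMM replicate 2 and STH replicate 3, 37 of 38 were below 0, with a median of -0.50. None was called by edgeR, and DESeq2 called 1, beside 4.44% of all genes. At an unadjusted p below 0.05, 11 (28.9%) were lower, beside 9.72% of all genes. The largest difference was that of NDUFS1, the iron-sulphur subunit at the NADH-oxidising end. QHMM had 2913, 3619 and 4147 normalized counts and STH 2135, 1908 and 1731, a log2 fold change of -0.89 (SE 0.23, edgeR FDR = 0.0659). The lowest QHMM library was above the highest STH library, and NDUFS1 was called by DESeq2 (FDR = 0.00742).

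NDUFS1 belongs with NDUFV1 and NDUFV2 to the part of the core that binds NADH and passes its electrons on. The flavoprotein subunit NDUFV1 had 4851, 7658 and 4423 normalized counts in QHMM against 3559, 3308 and 5182, a log2 fold change of -0.49. NDUFV2 had 1536, 1992 and 2258 against 1175, 1434 and 1465, and -0.51. The breeds overlapped for NDUFV1 through STH replicate 3 but not for NDUFV2. In the part of the core that reaches ubiquinone, NDUFS3 had -0.16, NDUFS7 -0.09 and NDUFS8 0.11, and the breeds overlapped in all 3. Whether these differences within the core are unequal was not tested.

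The 31 other genes with complex I names, most of which encode accessory subunits around the core, had a median of -0.445 (30 of 31 below 0). In 15 (48.4%) the breeds did not overlap, beside 11.7% of all tested genes. NDUFA6, which binds the mitochondrial acyl carrier protein in the complex, had 384, 490 and 465 normalized counts in QHMM and 228, 299 and 297 in STH. That is a log2 fold change of -0.70 (SE 0.22, edgeR FDR = 0.109). NDUFA13, the most abundant of them by RPKM (reads scaled to gene length and library total) with a mean of 650.8, had 4757, 6476 and 4854 against 2954, 2615 and 4844. The change was -0.63 on the log2 scale (SE 0.29, edgeR FDR = 0.266), and STH replicate 3 reached the level of QHMM replicate 1. By name, the 14 NDUFA genes had a median of -0.51, the 11 NDUFB genes of -0.41, the 2 NDUFC genes of -0.39, the 8 NDUFS genes of -0.33 and the 3 NDUFV genes of -0.49. Genes close to 0 were present too, with NDUFA9 at -0.02, NDUFA8 at -0.07 and NDUFB9 at -0.07.

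NDUFA4 carries a complex I name but is now counted as a subunit of complex IV. It and its paralogue NDUFA4L2 stay in the complex I counts above by name, and without them 35 of 36 genes were below 0 with a median of -0.46. The QHMM libraries of NDUFA4 had 2439, 2982 and 3040 normalized counts and the STH libraries 1631, 1806 and 1977, without overlap, and its log2 fold change was -0.64 (SE 0.22, edgeR FDR = 0.138). NDUFA4L2, known as a gene induced by low oxygen, was low, with 61.6, 92.5 and 77.2 counts against 78.4, 69.4 and 115. The breeds overlapped and the log2 fold change was 0.19 (SE 0.30, edgeR FDR = 0.781), or -0.05 without STH replicate 3.

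The 7 NDUFAF genes, whose products help to build complex I and are not part of the finished enzyme, had a median of -0.32. Of the 7, 6 were below 0 and 0 were called by edgeR or DESeq2. At an unadjusted p below 0.05, 2 (28.6%) were lower, beside 9.72% of all genes. NDUFAF1, which takes part in the assembly of the membrane arm, had 239, 377 and 347 normalized counts against 195, 174 and 181. The log2 fold change was -0.81 (SE 0.24, edgeR FDR = 0.0929), and its breeds did not overlap. NDUFAF2 had 155, 200 and 256 against 88.3, 97.2 and 165, with -0.81 (SE 0.31, edgeR FDR = 0.181) and an overlap through STH replicate 3. NDUFAF3, the most abundant by RPKM at a mean of 56.3, had 625, 636 and 498 against 517, 377 and 518, and -0.32 (SE 0.22, edgeR FDR = 0.476). The others lay between -0.47 (NDUFAF5) and 0.13 (NDUFAF4).

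Complex II, the succinate dehydrogenase that also belongs to the citrate cycle, held the gene past the threshold. SDHC, an anchor of the complex in the membrane, fell in STH. QHMM had 2863, 4098 and 3810 normalized counts and STH 1869, 1609 and 1918, so that the level in STH was 0.501 of that in QHMM. The log2 fold change was -0.997 (SE 0.23, edgeR FDR = 0.0459), and the breeds were well apart. The call was narrow: the edgeR FDR was between 0.0668 and 0.145 when any 1 of the 6 libraries was left out (0.0668 without QHMM replicate 1, 0.144 without QHMM replicate 2, 0.127 without QHMM replicate 3, 0.0734, 0.145 and 0.0739 without STH replicates 1, 2 and 3). It was 0.195 without both QHMM replicate 2 and STH replicate 3. DESeq2 gave an FDR of 0.00201. The study had also found SDHC lower in these same libraries, so the call is not independent of that result. By its account SDHC was then drawn at random among such genes for qRT-PCR, which also gave a lower level in STH. The paper describes the cDNA for it as made from the same RNA samples and names no further animals.

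The other anchor, SDHD, was uneven. It had 790, 329 and 329 normalized counts in QHMM against 222, 176 and 438 in STH, a log2 fold change of -0.80 (SE 0.41, edgeR FDR = 0.323). QHMM replicate 1 was the highest library, and STH replicate 3 exceeded the other QHMM libraries. A gene under a LOC number (LOC780772) that carries the BLAST symbol SDHD held more reads than SDHD itself, 4822 against 2315 raw counts over the 6 libraries. Summed with this gene and with LOC780442, SDHD had 1444, 1367 and 1560 normalized counts in QHMM against 1076, 777 and 1037. The breeds then did not overlap, and the log2 fold change was -0.62 (SE 0.22, edgeR FDR = 0.151). How reads were divided between these genes is uncertain, since only uniquely mapped reads were counted.

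SDHA, the flavoprotein that oxidises succinate, had 14143, 20925 and 12703 normalized counts in QHMM against 10312, 9070 and 16389 in STH. The difference was -0.42 on the log2 scale (SE 0.31, edgeR FDR = 0.510). The iron-sulphur subunit SDHB had 3255, 5134 and 3456 against 2738, 3012 and 3848, and -0.30 (SE 0.26, edgeR FDR = 0.577). In both genes STH replicate 3 was above 2 of the 3 QHMM libraries. A difference between the subunits of complex II in their response to breed was not tested.

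**Figure D3:**
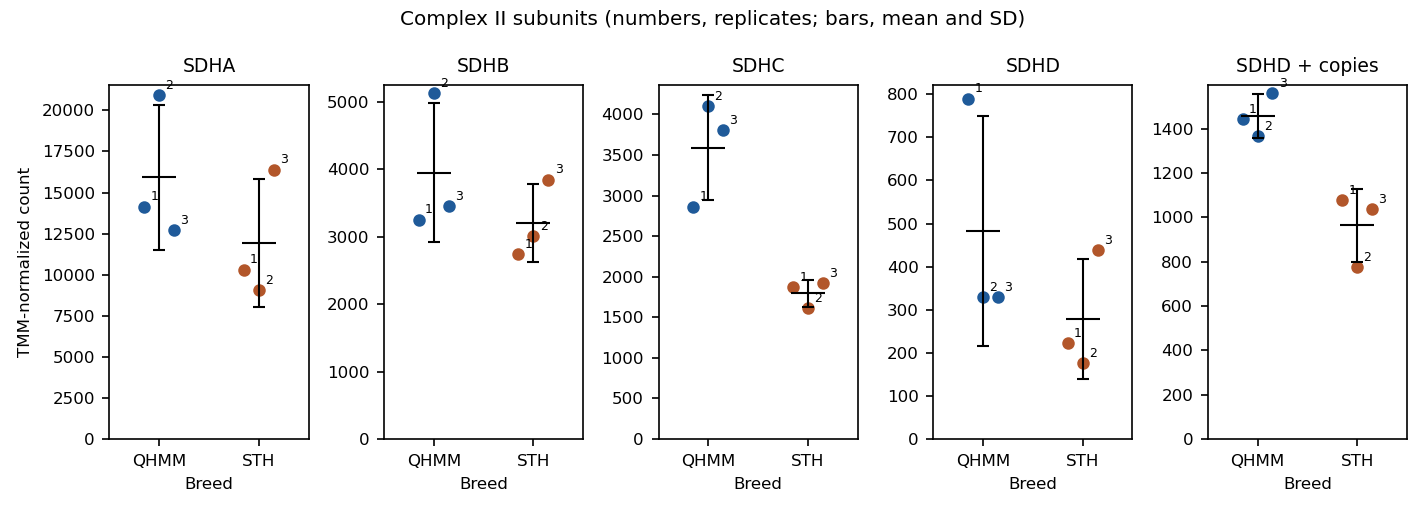
TMM-normalized counts (y axis, from 0) of the 4 complex II genes and of SDHD summed with its copies in the 3 QHMM (blue) and 3 STH (orange) libraries; numbers are replicates and bars the mean and SD (n = 3). SDHC and the summed SDHD do not overlap between the breeds, while SDHA, SDHB and SDHD alone do.

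Complex III, which passes electrons from ubiquinol to cytochrome c, was represented by symbol by UQCRH, its hinge protein. The libraries of QHMM had 1377, 1759 and 1513 normalized counts of UQCRH and those of STH 1163, 890 and 1248, without overlap. This was a log2 fold change of -0.49 (SE 0.22, edgeR FDR = 0.261). Further genes with BLAST symbols of its subunits stood under LOC numbers, and 10 of 10 were below 0 with a median of -0.47. They ranged from -0.68 for a second, low-count UQCRFS1 gene (LOC101115968) to -0.34 for UQCRC1 (LOC101110095), and 0 were called by edgeR or DESeq2, with 2 lower at an unadjusted p below 0.05. Cytochrome c1 (CYC1, LOC101113599), the haem subunit that hands electrons to cytochrome c, had 8324, 12557 and 10223 normalized counts against 7425, 6065 and 8413. The log2 fold change was -0.51 (SE 0.26, edgeR FDR = 0.315), with an overlap of STH replicate 3 and QHMM replicate 1. The LOC genes of this and the next paragraphs were added after the values had been seen.

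Complex IV, the cytochrome c oxidase, was represented by COX5A among the genes with a COX symbol, with 1365, 2206 and 1924 normalized counts in QHMM against 984, 1292 and 1508. The value of STH vs. QHMM was -0.54 on the log2 scale (SE 0.26, edgeR FDR = 0.284), and STH replicate 3 was above QHMM replicate 1. Of the 18 tested LOC genes of complex IV, 16 were below 0 and the median was -0.47. The breeds did not overlap in 6 (33.3%), beside 11.7% of all tested genes. None was called by edgeR and 1 by DESeq2. At an unadjusted p below 0.05, 5 (27.8%) were lower, beside 9.72% of all genes. The largest differences were those of the isoforms typical of heart and skeletal muscle. COX6A2 (LOC101106131) had 4962, 6528 and 5985 against 2619, 3106 and 3851, a log2 fold change of -0.87 (SE 0.25, edgeR FDR = 0.0823) without overlap. COX7A1 (LOC101121285) had 3804, 6537 and 4937 against 2558, 2291 and 3982, and -0.79 (SE 0.30, edgeR FDR = 0.176). COX4I1 (LOC101105179), the isoform of subunit IV found in most tissues and by RPKM the most abundant gene of the complex outside mitochondrial DNA, had 14928, 18889 and 15656 against 14065, 14767 and 16415. Its log2 fold change was -0.13 (SE 0.24, edgeR FDR = 0.818), so that it was among the genes with little difference.

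Cytochrome c, the small carrier between complexes III and IV, gave opposite values for the 2 tested genes of that BLAST symbol. LOC101107954 had 681, 605 and 162 normalized counts in QHMM against 1250, 1519 and 1369, a log2 fold change of 1.51 (SE 0.42, edgeR FDR = 0.0787). LOC101107359 had 367, 328 and 576 against 192, 282 and 209, and -0.89 (SE 0.27, edgeR FDR = 0.101). In each gene the breeds did not overlap, and neither was called by edgeR, while DESeq2 called both in these directions. The table holds 7 genes with the symbol CYCS, of which 5 had too few counts to be tested. Their sequences are not told apart here, and how uniquely mapped reads fell among them is uncertain.

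**Figure D4:**
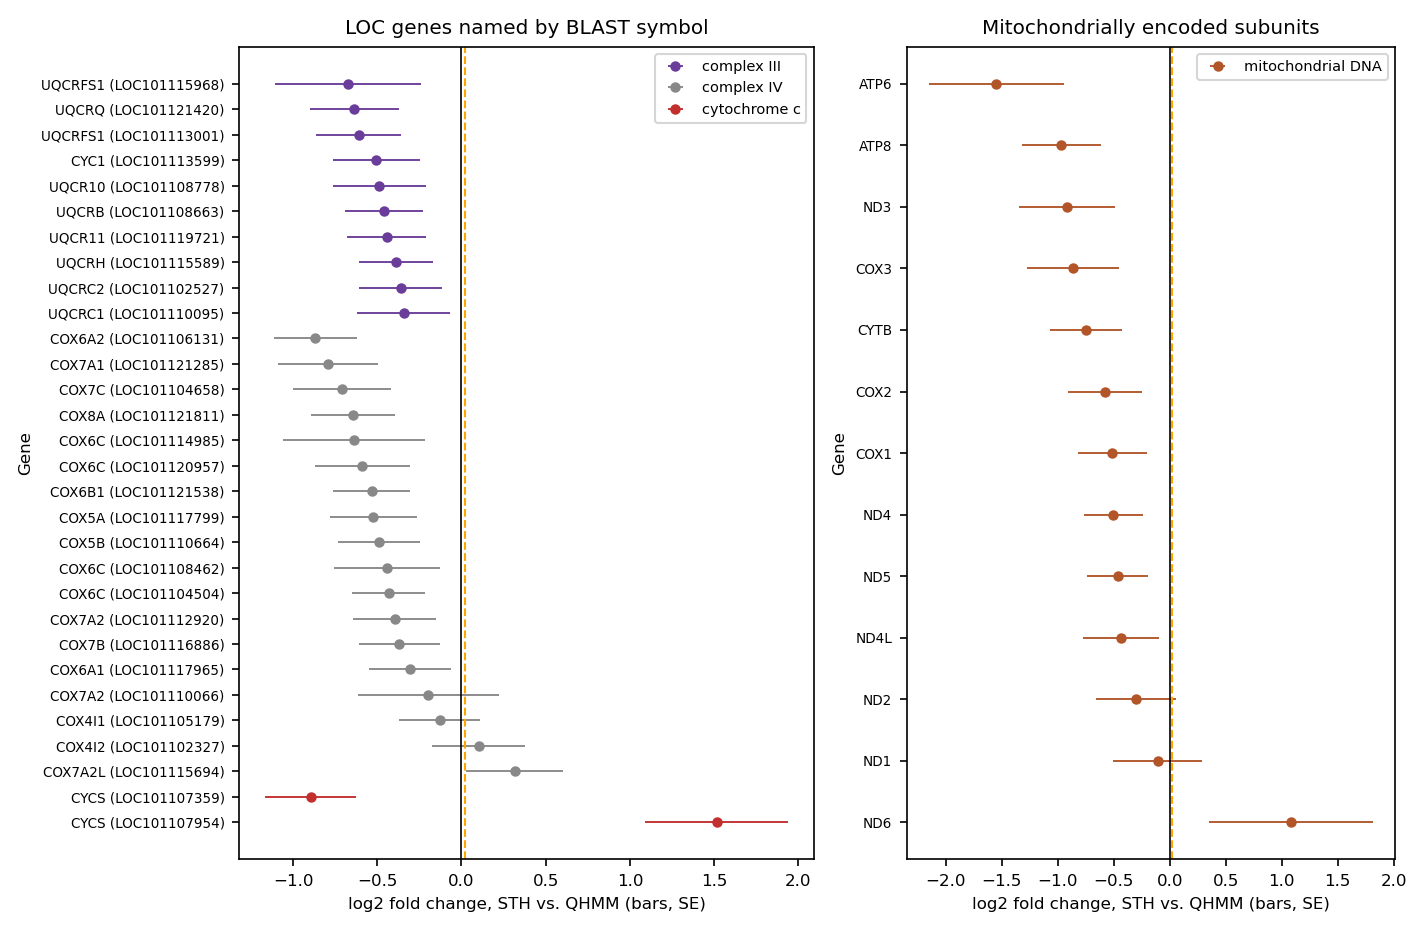
Log2 fold change, STH vs. QHMM (x axis), of the tested LOC genes of complexes III and IV and cytochrome c (left; BLAST symbol and LOC number on the y axis) and of the 13 subunits encoded in mitochondrial DNA (right); bars are SE and the dashed line the median of all tested genes. All complex III genes and 16 of 18 complex IV genes lie left of 0, and the cytochrome c genes lie on opposite sides.

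In the ATP synthase, 14 of 14 genes were below 0, with a median of -0.32, 7 without overlap and 0 called by edgeR (2 lower at an unadjusted p below 0.05, 1 called by DESeq2). Without QHMM replicate 2 and STH replicate 3, 12 of 14 were below 0, with a median of -0.29. The catalytic head is built of alpha and beta subunits. ATP5A1 (alpha) had 10607, 12544 and 12716 normalized counts in QHMM against 8811, 6105 and 6826, a log2 fold change of -0.72 (SE 0.25, edgeR FDR = 0.142). The breeds did not overlap, and DESeq2 called the gene (FDR = 0.0403). ATP5B (beta), with a mean RPKM of 1225.2 the highest level per length among the 65 genes, had 32099, 40673 and 27313 against 26645, 22104 and 28534, with a log2 fold change of -0.37 (SE 0.26, edgeR FDR = 0.483), and STH replicate 3 exceeded QHMM replicate 3. In the central stalk, ATP5C1 (gamma) had -0.19 and ATP5D (delta) -0.12, both with overlap.

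The peripheral stalk, which holds the head still against the turning rotor, gave values close to each other. ATP5O, ATP5J, ATP5H and ATP5F1 had -0.35, -0.34, -0.33 and -0.31. In all 4 every STH library was below every QHMM library, beside 11.7% of all tested genes. The c-ring of the rotor is encoded by several genes for the same mature protein. ATP5G1 had 5626, 6524 and 4589 normalized counts against 4167, 2636 and 4183 without overlap, a log2 fold change of -0.61 (SE 0.27, edgeR FDR = 0.245). ATP5G2 had 1805, 2474 and 1967 against 1727, 2171 and 2201, and -0.03 (SE 0.23, edgeR FDR = 0.956). ATP5G3, which is listed as LOC101108285, had -0.41. The small membrane subunits ATP5I (e) and ATP5L (g) had -0.50 and -0.28. ATP5S, known as coupling factor B, and ATP5SL, a relative of it linked to complex I assembly, had -0.14 and -0.28.

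The subunits encoded in mitochondrial DNA were all listed (13 of 13), and 12 of 13 were below 0 with a median of -0.51. The breeds did not overlap in 2 (15.4%), which is near the 11.7% of all tested genes. None was called by edgeR or DESeq2, and 3 (23.1%) were lower at an unadjusted p below 0.05, beside 9.72% of all genes. Here QHMM replicate 2 stood far above the other libraries in several genes. ATP6 had 11088, 67083 and 11876 normalized counts in QHMM against 9306, 11492 and 9939, a log2 fold change of -1.55 (SE 0.60, edgeR FDR = 0.190). COX3 had 21191, 73159 and 29880 against 21610, 23511 and 23238, and -0.86. CYTB, the haem-bearing core of complex III, had 65940, 139139 and 83998 against 45962, 62812 and 63401, without overlap, and -0.75. Together the 13 genes took 1.83%, 3.43% and 2.31% of the counts in QHMM and 1.74%, 2.08% and 1.48% in STH. Without QHMM replicate 2 and STH replicate 3 the median was -0.19 with 9 of 13 below 0. The remaining libraries did not overlap in 15.4% of the 13, beside 23.6% of all genes. ND6, the exception with 1.08, held between 0.893 and 33.0 normalized counts.

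**Figure D5:**
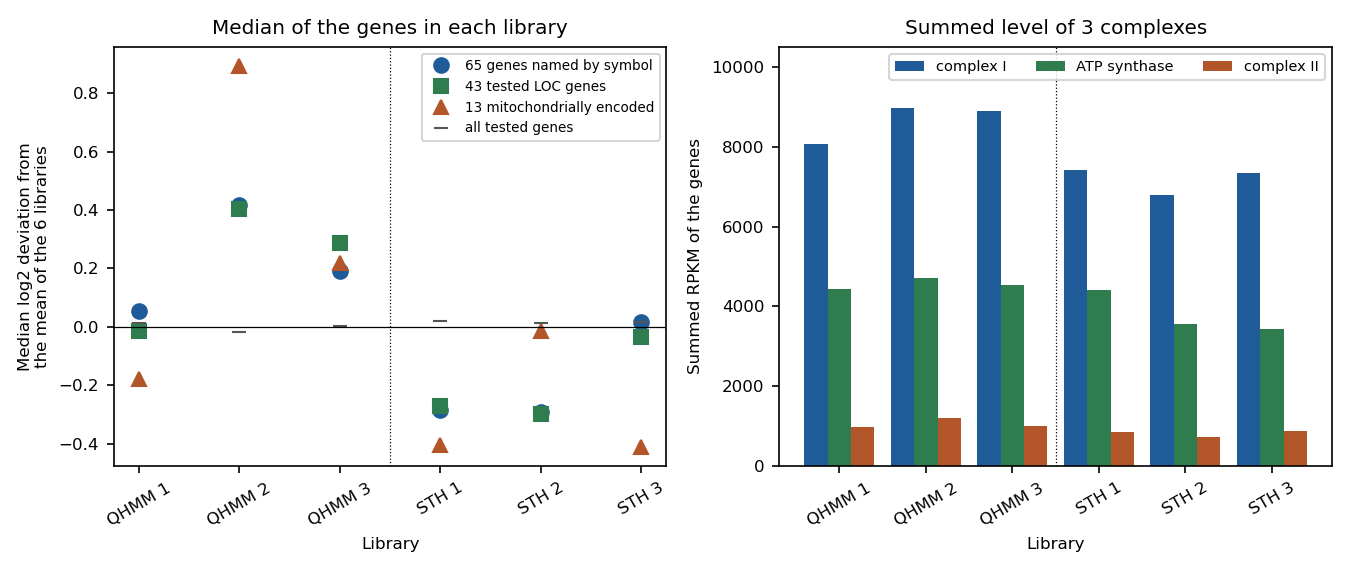
Left, the median log2 deviation from the 6-library mean (y axis) of 4 sets of genes in each library (x axis); right, the summed RPKM of complex I, ATP synthase and complex II genes in each library (bars from 0). The 65 genes and the tested LOC genes run together from library to library, the mitochondrially encoded genes peak in QHMM 2 at 0.89, and the median of all tested genes stays near 0.

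Per length, the summed RPKM of the 65 genes was 14769 ± 766 in QHMM and 12200.0 ± 837.3 in STH (SD, n = 3). Complex I contributed 8061, 8973 and 8899 in QHMM and 7424, 6798 and 7351 in STH, without overlap. Complex II contributed 972, 1198 and 994 against 842, 734 and 868, again without overlap. The ATP synthase genes had 4423, 4712 and 4536 against 4415, 3564 and 3418, where the first QHMM and the first STH library were close. The 65 genes took 1.34%, 1.5% and 1.42% of all counts in QHMM and 1.27%, 1.08% and 1.13% in STH. Since RPKM values are scaled to library totals, these ranges carry the abundance of the other muscle genes of each library. On summed TMM-normalized counts the complexes separated differently. Complex I had 78227, 106719 and 86167 in QHMM against 61725, 61396 and 84847 in STH. For complex II these sums were 21051, 30485 and 20297 against 15142, 13867 and 22593. Both complexes then overlapped through STH replicate 3. The ATP synthase genes, with 67831, 84534 and 66611 against 57433, 48623 and 59913, did not overlap.

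Within a complex, the mean RPKM over all 6 libraries differed widely. In complex I the levels ran from 6.36 for NDUFA4L2 to 650.8 for NDUFA13, with a median of 183. The NDUFAF genes were lower, from 5.14 for NDUFAF5 to 56.3 for NDUFAF3 with a median of 8.17. In complex II SDHA had 472.7, SDHB 288, SDHC 159 and SDHD 15.2, while LOC780772 had 131. In the ATP synthase family ATP5S was lowest at 7.03 and ATP5B highest.

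The balance between tissue-specific and general isoforms was compared as the log2 ratio of their RPKM values in each library. For COX6A2 over COX6A1 it was 3.13 ± 0.49 in QHMM and 2.56 ± 0.42 in STH (SD, n = 3), a difference of -0.57 with exact two-sided permutation p = 0.30. For COX7A1 over COX7A2 it was 4.98 ± 0.60 against 4.56 ± 0.32, a difference of -0.42 (exact permutation p = 0.30). By these values the muscle isoforms were the more abundant in both breeds, and the ratios overlapped between the breeds. COX7A2 was taken from LOC101112920 alone. Other genes with that BLAST symbol held at most 19.3 normalized counts, and how uniquely mapped reads fell among them is uncertain. For NDUFA4L2 over NDUFA4 the ratio was -5.91 ± 0.17 against -5.10 ± 0.30, a difference of 0.81, and for COX4I2 over COX4I1 it was -7.97 ± 0.02 against -7.74 ± 0.11, a difference of 0.22. These latter ratios did not overlap (exact permutation p = 0.10 for each), which is the smallest p that 3 against 3 allows, and over the 4 pairs the adjusted p was 0.20 for these 2 and 0.30 for the others. COX6B2 and COX7B2 were at 0 in some libraries and COX8B was not analysed here, so their pairs were not compared.

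Among other genes of the pathway, the list of assembly factors outside the NDUFAF family gave 0 of 21 called by symbol. Of these, 13 of 21 were below 0, with a median of -0.09. The list also holds the ATP synthase inhibitor ATPIF1 and the small ATP synthase subunit USMG5, which are not assembly factors in the strict sense. Those under LOC numbers gave 0 of 18 called and a median of -0.26. At an unadjusted p below 0.05 edgeR found 3 of the 21 and 4 of the 18 lower and 0 higher, and DESeq2 called 1 and 2 lower. Over all tested genes 9.72% were lower and 9.43% higher at that p, and DESeq2 called 4.44% lower. The mitochondrial biogenesis factors gave 0 of 10 called, 4 below 0 and 6 above, with a median of 0.11, and at an unadjusted p below 0.05 1 was lower and 3 higher. The 12 other mitochondrial genes, among them citrate synthase, porins and import proteins, gave 0 called, a median of 0.12, and 4 below and 8 above 0, with 1 lower and 0 higher at an unadjusted p below 0.05. DESeq2 called 2 of the biogenesis factors and 1 of the other mitochondrial genes, beside 7.8% of all genes in either direction. Whether these small lists differ from the shares over all genes was not tested.

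The electron donors that feed ubiquinone from outside complexes I and II gave 0 of 5 called by symbol, with 0 at an unadjusted p below 0.05 and 0 by DESeq2. GPD2, the mitochondrial glycerol-3-phosphate dehydrogenase, is listed under LOC443090 and rose in STH. The counts were 443, 520 and 588 in QHMM against 1442, 2125 and 937, a log2 fold change of 1.54 (SE 0.30, edgeR FDR = 0.0235). It was the 1 gene of the other pathway lists that passed the threshold, and every STH library was above every QHMM library. Over all tested genes 3.45% were called, 1.62% of them higher in STH as a share of all genes. A single call over all these lists is thus near the background. The call was lost when QHMM replicate 1, 2 or 3 or STH replicate 2 was left out, where the log2 fold change remained at 1.18 or more.

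Some values carry limits of annotation. Of the 65 genes, 10 have at least 1 LOC gene with the same BLAST symbol. In ATP5L, ATP5I, UQCRH and COX5A the copy held 146%, 82.0%, 69.5% and 36.7% of the counts of the named gene, and its log2 fold change was -0.32, -0.40, -0.39 and -0.52 beside -0.28, -0.50, -0.49 and -0.54. For NDUFA4 the copy LOC101104299 (17.3%) had -0.79 beside -0.64. Other copies held fewer reads: that of NDUFB1 (22.5%) had 0.15 beside -0.47, those of NDUFA5 (25.9% and 23.1%) had -2.47 and 0.67 beside -0.445, and that of NDUFAF4 (32.3%) had 0.36 beside 0.13. With the copies summed, SDHC was again the 1 called gene and the median was -0.43. In the RefSeq annotation of another sheep assembly (ARS-UI_Ramb_v3.0), 55 of the 65 symbols were matched and 12 overlap another gene, SDHC and SDHD among them. Whether strand was used in counting is not given in the sources used here, so reads of overlapping genes cannot be told apart.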

How the data were processed

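Poly(A) RNA of 6 longissimus muscles (3 QHMM, 3 STH, grouped by the sample titles) was read on an Ion Proton. The authors mapped reads to the sheep genome Oar 3.1, kept unique ones and deposited raw counts per gene. They also deposited RPKM values, which equal counts over gene length and library total, without the upper-quartile correction their methods name. The aligner, counting program and annotation release are not given in the sources used here. Names of 25 RPKM genes that had turned into dates were not joined.

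Counts were tested in R 4.3.3 with edgeR 4.0.16 (TMM, filterByExpr, quasi-likelihood F-test, breed as the only term, Benjamini-Hochberg over 12506 genes). The study's program, EBSeq, was not run here. The SE was the log2 fold change over the root of F. Alternatives used DESeq2 1.42.0, other scalings and filters, limma 3.58.1 (limma-trend) on log2(RPKM + 1) or log2(RPKM + 0.1), and each library left out. The tests were checked on simulated counts. Genes given with all values were the called ones, per complex the 2 with the largest absolute log2 fold change and the 1 with the highest RPKM, complex II, CYC1, CYCS and the isoform pairs. Other subunits were named to complete their group, and LOC genes, the copies and GPD1 after their values were seen. The genes and lists were chosen with earlier results of these data known. Each library is 1 animal, so the tests measure the spread between animals. Replicate numbers do not link animals of both breeds. Ratios were tested by exact permutation in Python 3.11.15 with SciPy 1.17.1. The single values of 1 gene are not reported here, and it is left out of the plots, though it stands in the counts and medians.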

Additional observations from a re-analysis of the deposited data

How the results depend on the processing

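Over 20 other fits, 53 of the 65 genes were below 0 in every one, and the median stayed between -0.52 and -0.29. The number called lower in STH was 3 with DESeq2 (ATP5A1, NDUFS1 and SDHC), and 0 with the replicate block, with limma-trend on log2(RPKM + 0.1) or on all genes above 0, with library totals alone, and without QHMM replicate 2 and STH replicate 3 (the latter 2 settings were added after the data were seen). It was 0 to 0 when single libraries were left out. Over all genes the calls went from 432 to 975 with DESeq2, 806 without a filter, 250 with library totals, 78 with limma-trend on all genes above 0, 11 without those 2 libraries, and 131 to 535 with single libraries left out. For the LOC genes, 0 were called by edgeR, 5 by DESeq2, 2 by limma-trend on log2(RPKM + 1), and 1 each with log2(RPKM + 0.1), no filter, at least 10 counts in every library, upper-quartile factors and the replicate block. DESeq2 called 1 gene listed by symbol with the assembly factors (ATPIF1, the ATP synthase inhibitor). It also called 2 biogenesis factors (PPARGC1B lower and PPRC1 higher) and 1 other mitochondrial gene (CKMT2). All were named after their values were seen. The biogenesis factors had 2 called without a filter, 1 (PPARGC1B) with the replicate block and 0 to 2 with single libraries left out. GPD2 gave 0 calls with log2(RPKM + 0.1), on all genes above 0 and without both libraries, and 0 to 1 with single libraries left out. The median of complex IV LOC genes was -0.27 with limma-trend on all genes above 0, and that of the 7 core complex I genes ranged from -0.61 to -0.20 (the latter without QHMM replicate 2) with single libraries left out. NDUFA4L2 ranged from -0.053 to 0.341 with single libraries left out and changed sign without STH replicate 3, while the other symbols chosen by the rule for full values kept their sign in each fit. The isoform ratio differences kept their sign with normalized counts and with single libraries left out. Same-numbered libraries of the breeds had correlations of 0.226, -0.038 and -0.13, so the number was taken only as a name, and the block moved all calls from 432 to 457. With 3 animals a breed and SEs near 0.24, single differences of the size seen here were mostly below the threshold. The cause of the differences between settings was not tested.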

Other observations

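GPD1, the cytosolic glycerol-3-phosphate dehydrogenase that works with GPD2 in the glycerol phosphate shuttle, was looked up after the value of GPD2 had been seen. It fell in STH, with 15781, 23405 and 18000 normalized counts in QHMM and 5977, 5094 and 7461 in STH, a log2 fold change of -1.63 (SE 0.27, edgeR FDR = 0.0141) without overlap. The cytosolic and the mitochondrial enzyme of the shuttle thus had opposite signs. GPD1L, a relative of GPD1, had 89.3, 92.5 and 77.2 against 86.7, 95.1 and 108, and 0.16 (SE 0.25, edgeR FDR = 0.777). Citrate synthase, a common marker of mitochondrial content, had a log2 fold change of -0.53 (edgeR FDR = 0.273). VDAC3, PHB2 and HSPD1 had 0.31, 0.50 and 0.34 (edgeR FDR = 0.552, 0.30 and 0.58). The largest change of that list was CKMT2 with -0.88 (edgeR FDR = 0.11), without overlap and called by DESeq2. Of the 12 genes listed, 4 estimates were below 0 and 8 above, with 0 called by edgeR. The estimates thus did not share 1 sign, and most were small beside their error. The genes named here were picked after their values were seen.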
